A study of Mus musculus with 4 samples.

Results

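The genes described here are 10 targets and feedback regulators of Wnt and β-catenin signalling that mark pericentral hepatocytes, the liver cells around the central vein. They were taken by name, namely Glul, Oat, Rhbg and Slc1a2 among enzymes and transporters, the transcription factor Tbx3, the R-spondin receptor Lgr5, and the feedback inhibitors Axin2, Rnf43, Znrf3 and Nkd1. Of the 10, 9 were matched to an identifier among the 37315 genes of the count files, and all 9 were among the 14657 genes tested. Rhbg, an ammonium transporter, was not analysed here. RNA sequencing had been run on liver tissue of C57BL/6 mice aged 23 weeks, with 2 wild type libraries and 2 libraries from mice carrying a synonymous Foxo1 mutation. A synonymous mutation exchanges a base of the coding sequence without exchanging an amino acid. No other allele, agent or treatment is named for either group, and the sources used here give neither the base exchanged nor the feeding state. Whether each library came from its own animal is not stated, so the p-values rest on a spread between libraries that may be technical.

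In the liver lobule, endothelial cells of the central vein secrete Wnt ligands and the R-spondin Rspo3. Ligand binding to Frizzled and Lrp receptors on nearby hepatocytes stops the breakdown of β-catenin, which then activates genes in the nucleus together with TCF/LEF factors. The innermost ring of hepatocytes, next to the central vein, where the signal is strongest, makes glutamine synthetase and takes up glutamate and ammonium, and the pathway also switches on its own inhibitors. Foxo1, a transcription factor restrained by insulin, is known to bind β-catenin.

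Library totals lay between 73551737 and 95908652 counts. At that depth 3 counts, the limit that a count of 0 allows, stood for 0.0313 to 0.0408 CPM (counts scaled by library size). The 9 genes had at least 369 counts in every library. Unless stated otherwise, values are CPM normalised between libraries and group values are mean ± SD (n = 2). Each log2 fold change sets mutant over wild type liver and carries a standard error (SE) derived from the edgeR test. Hepatocyte genes were abundant in all 4 libraries, with 64771 to 80683 CPM of albumin (Alb). Foxo1 itself was at 44.0 and 54.8 CPM in the wild type and 33.6 and 53.4 CPM in the mutant libraries, and the groups overlapped (log2 fold change −0.18, SE 0.30).

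To look for TCF/LEF and FOXO letters near the starts of these genes, windows were searched on both strands. They ran from 250 bases before to 50 bases after a transcription start (RefSeq, GRCm38.p6). Of the 10 genes, 6 had a window (Glul, Oat, Axin2, Slc1a2, Nkd1 and Rnf43, the last with 2 starts). Lgr5, Tbx3, Rhbg and Znrf3 had none. The TCF/LEF letters CTTTGAT occurred in 1 of these 7 windows, that of Slc1a2, and in 3.73% of all 32851 windows. The related letters CTTTGAA, found in 5.14% of all windows, and the FOXO letters TGTTTAC, found in 3.65%, had no match in the 7 windows. The stretch of the Slc1a2 window with the match is shown because it is the only one among these genes. It lies at chr2:102706211-102706257 on the plus strand, before an internal start of the gene, and its capitals mark the match, read on the opposite strand.
Slc1a2 promoter stretch: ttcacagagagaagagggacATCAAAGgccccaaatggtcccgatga
The match begins 207 bases before the start. It is a match of letters and not a measured site. A window without a match does not show that the gene lacks such a site, since sequence outside the windows was not searched.

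Of the enzymes and transporters of the pericentral ring, none passed the threshold of an adjusted p below 0.05 between mutant and wild type liver. Glul (ENSMUSG00000026473, mm10 chromosome 1, 153899944 to 153909723, plus strand) encodes glutamine synthetase, which joins ammonium to glutamate. It was at 855 and 862 CPM in wild type replicates 1 and 2 and at 913 and 816 CPM in mutant replicates 1 and 2. The 2 wild type values lay between the 2 mutant values. The group values of 859 ± 5.02 and 865 ± 68.7 CPM gave a log2 fold change of 0.01 (SE 0.11, 95% interval −0.22 to 0.24). Exons of Glul overlap those of Teddm2 on the opposite strand over 116 bases.

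Oat (ENSMUSG00000030934, chromosome 7, 132557478 to 132576398, minus strand) encodes ornithine aminotransferase, a mitochondrial enzyme that yields glutamate from ornithine. It was at 607 and 726 CPM in the wild type and at 776 and 655 CPM in the mutant libraries, and both groups spanned much of the same range. Its log2 fold change was 0.10 (SE 0.12, 95% interval −0.17 to 0.37). Slc1a2 (ENSMUSG00000005089, chromosome 2, 102658659 to 102790784, plus strand), a glutamate transporter of the plasma membrane, was at 108 and 99.3 CPM in the wild type and at 106 and 116 CPM in the mutant libraries. Mutant replicate 2 was the highest and wild type replicate 2 the lowest, and the groups overlapped (log2 fold change 0.10, SE 0.10, 95% interval −0.11 to 0.31). Exons of Slc1a2 overlap Gm13872 on the opposite strand over 189 bases. The value of Oat was negative when wild type replicate 1 (−0.022) or mutant replicate 1 (−0.026) was left out, and that of Glul when mutant replicate 1 was left out (−0.073).

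Lgr5 (ENSMUSG00000020140, chromosome 10, 115450311 to 115587780, minus strand), the R-spondin receptor that enhances Wnt signalling, had the smallest p of the 9 genes. It was at 11.5 and 10.4 CPM in wild type replicates 1 and 2 and at 8.33 and 9.77 CPM in mutant replicates 1 and 2. Both mutant values lay below both wild type values, with mutant replicate 2 close to wild type replicate 2. The fitted log2 fold change was −0.27 (fold 0.828, SE 0.13, 95% interval −0.56 to 0.02). This difference did not pass the threshold (edgeR unadjusted p = 0.0641, adjusted p = 0.867), and 1081 of the 14657 genes had a smaller p. Leaving out each library in turn gave log2 fold changes of −0.39 to −0.16.

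Tbx3 (ENSMUSG00000018604, chromosome 5, 119670669 to 119684724, plus strand), a T-box transcription factor, was at 15.1 and 12.5 CPM in the wild type and at 16.2 and 12.8 CPM in the mutant libraries. Replicate 1 was the higher library of both groups, and the groups overlapped. The log2 fold change of 0.07 (SE 0.14, 95% interval −0.24 to 0.38) was −0.062 when wild type replicate 2 was left out and −0.11 when mutant replicate 1 was. Exons of Tbx3 overlap its opposite-strand transcript Tbx3os1 over 115 bases.

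The 4 feedback inhibitors, which the pathway induces and which then restrain it, had log2 fold changes of both signs, and none passed the threshold. Axin2 (ENSMUSG00000000142, chromosome 11, 108920349 to 108950783, plus strand), a scaffold of the complex that degrades β-catenin, was at 5.32 and 5.55 CPM in the wild type and at 5.82 and 6.17 CPM in the mutant libraries. Both mutant values lay above both wild type values, with a log2 fold change of 0.14 (SE 0.15, 95% interval −0.19 to 0.47, edgeR adjusted p = 1.0). Exons of Axin2 overlap Gm11670 on the opposite strand over 209 bases. Nkd1 (ENSMUSG00000031661, chromosome 8, 88521354 to 88594884, plus strand), which binds Dishevelled, was at 5.91 and 5.17 CPM in the wild type and at 4.88 and 4.41 CPM in the mutant libraries. Here both mutant values lay below both wild type values (log2 fold change −0.25, SE 0.17, 95% interval −0.61 to 0.11, edgeR adjusted p = 0.966).

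Rnf43 and Znrf3 encode related ubiquitin ligases that remove Frizzled receptors from the cell surface. Rnf43 (ENSMUSG00000034177, chromosome 11, 87662722 to 87735539, plus strand) was at 20.1 and 21.9 CPM in the wild type and at 20.6 and 25.6 CPM in the mutant libraries. Mutant replicate 2 stood above the other 3, which lay close together (log2 fold change 0.14, SE 0.12, 95% interval −0.12 to 0.40). Znrf3 (ENSMUSG00000041961, chromosome 11, 5276324 to 5444847, minus strand) was at 8.86 and 7.69 CPM in the wild type and at 5.88 and 8.37 CPM in the mutant libraries. Mutant replicate 1 was the low library, and mutant replicate 2 lay between the wild type values (log2 fold change −0.22, SE 0.18, 95% interval −0.61 to 0.17). With mutant replicate 1 left out the value of Znrf3 was 0.015, and with mutant replicate 2 left out that of Rnf43 was −0.030.

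**Figure D1:**
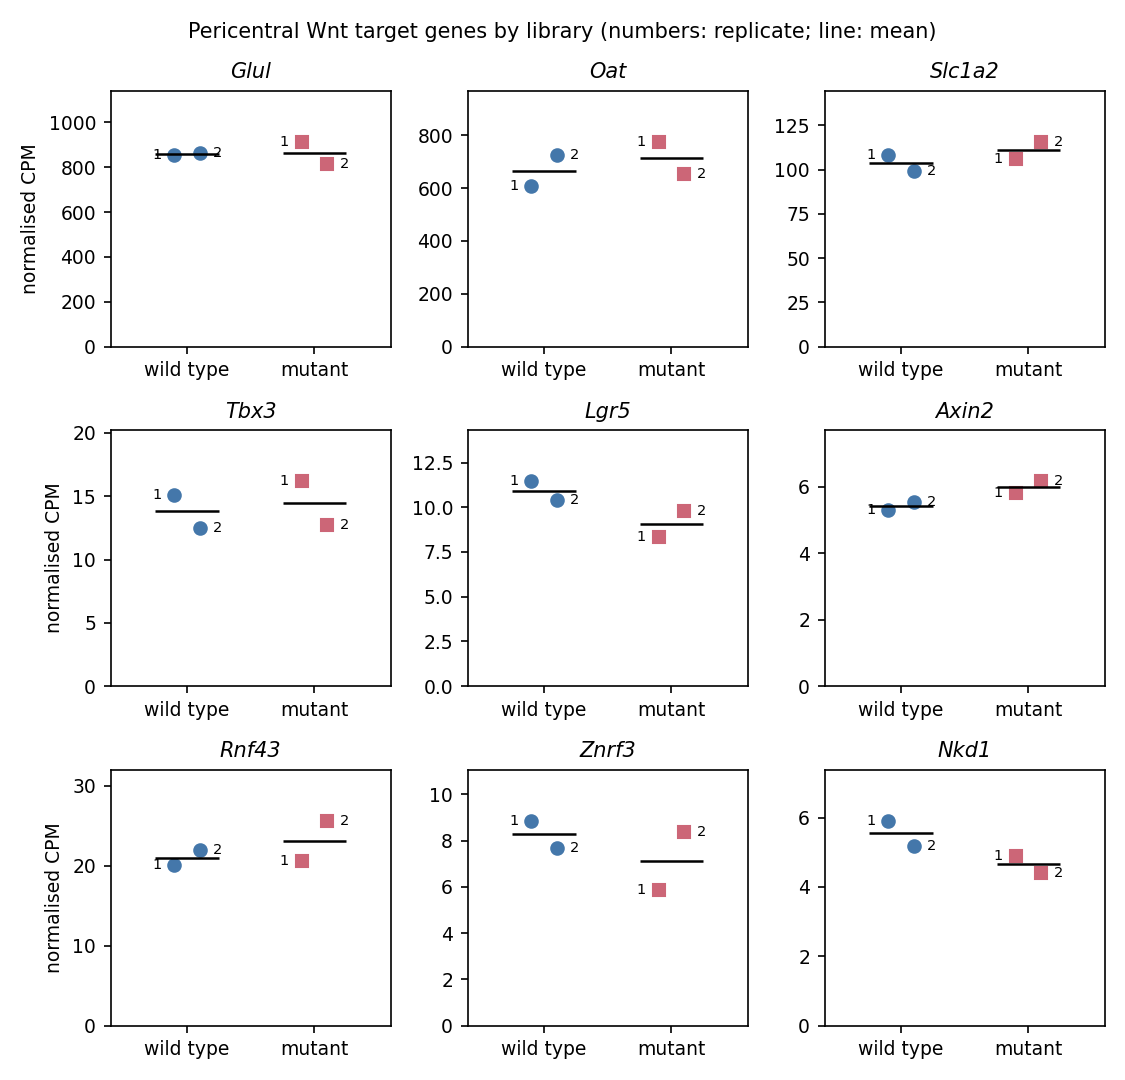
Normalised CPM of the 9 genes in each library, with a separate linear axis from 0 for each gene; circles are wild type, squares mutant, small numbers the replicate and horizontal lines the group mean (n = 2). The groups do not overlap for Lgr5 and Nkd1, lower in mutant liver, and for Axin2, higher in mutant liver; they overlap for the other 6 genes.

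Counted over the set, 0 of 9 genes passed the threshold in edgeR, where 50 of 14657 genes did (0.341%). At an unadjusted p below 0.05 there were also 0 of 9, against 6.19% of all genes tested. This count rested on all 4 libraries and rose when either mutant library was left out. The share over all genes is not given for those fits. DESeq2 and limma-voom called 0 at the adjusted threshold. The groups did not overlap for 3 of the 9 genes, against 34.1% of all genes tested, so this share was close to that of all genes. The log2 fold change was positive for 6 genes and negative for 3, and positive for 49.7% of all genes tested. Its median was 0.07, beside 0.00 over all genes tested, and its range was −0.27 (Lgr5) to 0.14 (Axin2). The 95% intervals of the main edgeR fit give the sizes of change that this fit leaves possible. They too rest on a spread between libraries that may be technical. For all 9 genes the interval stayed within a 2-fold change in either direction. For 7 it stayed within 1.5-fold, and for Znrf3 and Nkd1 its lower end reached just past 1.5-fold, to −0.61. The lower end for Lgr5, at −0.56, was close to 1.5-fold. With DESeq2 the SE was 0.17 for Lgr5 and 0.10 for Glul, against 0.13 and 0.11 in edgeR. The bounds therefore depend on the fit, and intervals of the other fits were not computed.

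**Figure D2:**
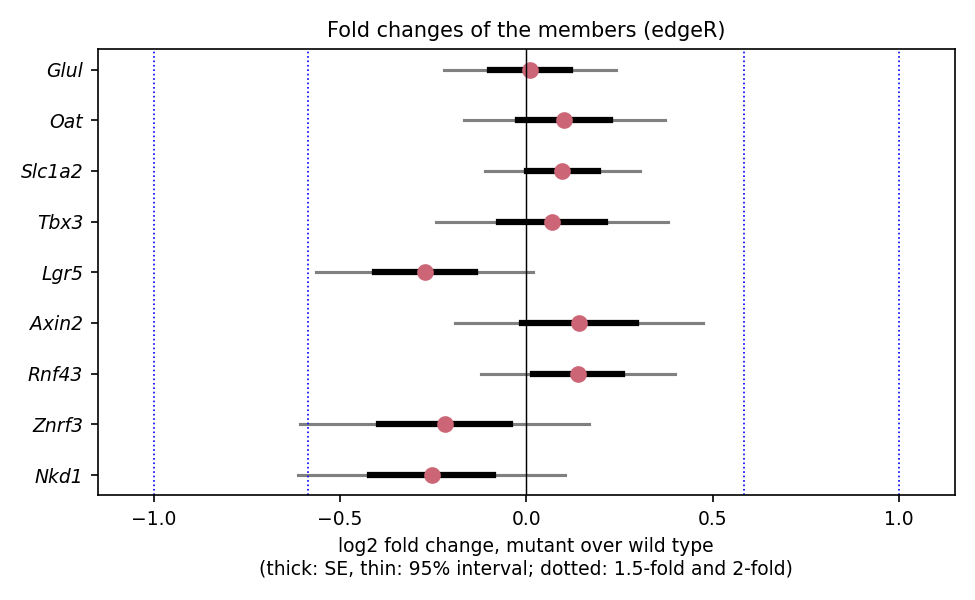
Log2 fold change of the 9 genes, mutant over wild type, from the edgeR fit across all genes (points), with 1 SE on either side (thick lines) and the 95% interval (thin lines); dotted lines mark 1.5-fold and 2-fold changes. All 9 intervals include 0, with that of Lgr5 ending at 0.02.

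Levels of different genes were compared per exon length, as TPM (counts per exon length, scaled to the same total in every library). The genes fell into an abundant pair and 7 much lower genes. Oat, at a mean of 624 TPM over the 4 libraries (568 to 695), and Glul, at 553 TPM (522 to 581), overlapped in range, and Oat was higher in 3 of 4 libraries. Glul stood 31.7-fold above Slc1a2, at 17.4 TPM (15.8 to 18.7). Rnf43 followed at 7.17 TPM (6.64 to 8.29) and Tbx3 at 4.56 TPM (3.93 to 5.17), each apart from its neighbours in every library. Nkd1 (2.39 TPM), Axin2 (2.21 TPM), Znrf3 (2.09 TPM) and Lgr5 (2.08 TPM) followed, and each overlapped the next, so their order was not resolved. With the longest transcript as the length in place of all exons, Lgr5 was at 3.76 TPM and came sixth, while the first 5 kept their places. Among all genes tested, Oat was at the 99.0 percentile of TPM and Lgr5 at the 36.1 percentile. In bulk tissue, fewer cells expressing a gene and less RNA per cell cannot be told apart, so these levels average the pericentral ring with the rest of the lobule.

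**Figure D3:**
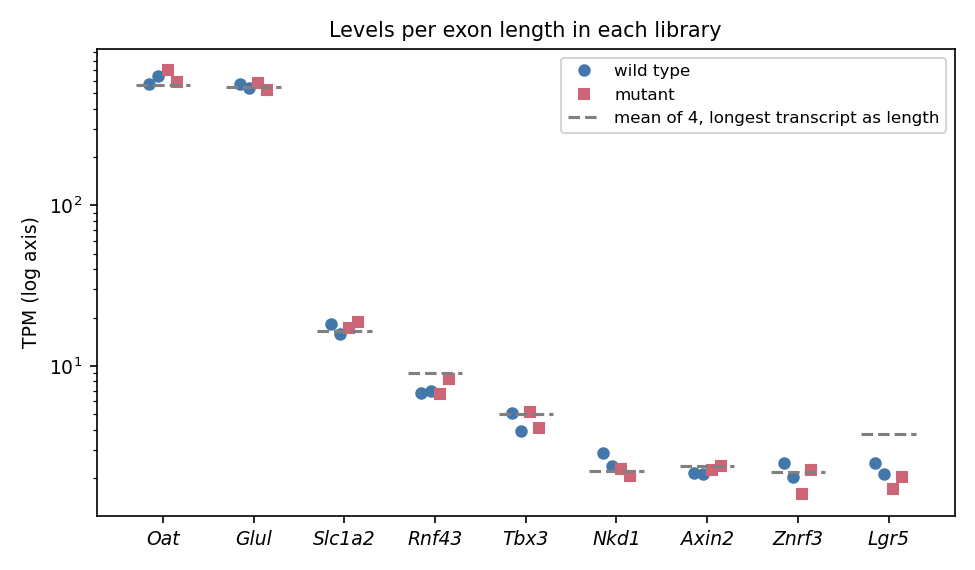
TPM of the 9 genes in each library on a log axis, ordered by the mean over 4 libraries; circles are wild type, squares mutant, and dashed lines the mean with the longest transcript as the length. Oat and Glul stand between 522 and 695 TPM, and the 4 lowest genes share a range of 1.58 to 2.87 TPM.

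The signals that reach pericentral hepatocytes were present at low levels in all 4 libraries. Rspo3, the R-spondin of central vein endothelium, was at 4.55 and 3.47 CPM in the wild type and at 4.97 and 4.08 CPM in the mutant libraries. Wnt2 was at 2.24 and 2.26 CPM in the wild type and at 2.14 and 2.67 CPM in the mutant libraries. Wnt9b was lower, at 1.04 and 1.12 CPM against 0.914 and 1.30 CPM. The groups overlapped for all 3 genes, whose log2 fold changes were 0.17 (SE 0.19), 0.09 (SE 0.22) and 0.04 (SE 0.32). Of 25 Wnt ligands, R-spondins and secretion factors listed, 11 were tested and 0 passed the threshold, with 6 positive and 5 negative log2 fold changes and a median of 0.04. Wnt5b, the ligand of highest level per length, was at 3.99 and 5.87 CPM in the wild type and 5.61 and 3.38 CPM in the mutant libraries. Porcn, which lipidates Wnt proteins for secretion, had the smallest p of the list (log2 fold change 0.25, SE 0.19, edgeR adjusted p = 0.990).

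Among 17 Wnt receptors listed, 11 were tested and 0 passed, with 5 positive and 6 negative values and a median of −0.01. Lgr4, the relative of Lgr5 expressed throughout the lobule, was at 45.5 and 50.2 CPM in the wild type and at 48.1 and 46.3 CPM in the mutant libraries (log2 fold change −0.02, SE 0.09). The co-receptor Lrp5 was at 93.9 and 98.8 CPM against 88.4 and 84.2 CPM, without overlap of the groups (−0.16, SE 0.09, edgeR adjusted p = 0.927). Fzd7 and Fzd4, Frizzled receptors, had values of 0.25 (SE 0.13) and 0.22 (SE 0.11), both with an edgeR adjusted p of 0.890.

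In the relay from receptor to nucleus, too, 0 genes passed the threshold. Ctnnb1, which encodes β-catenin, was at 158 and 152 CPM in the wild type and at 159 and 163 CPM in the mutant libraries (log2 fold change 0.05, SE 0.09, 95% interval −0.15 to 0.26). The groups did not overlap, by a narrow margin, and exons of Ctnnb1 overlap those of Ulk4 on the opposite strand. Tcf7l2, a TCF factor, was at 8.61 and 8.83 CPM against 7.42 and 8.67 CPM (−0.12, SE 0.14). Of 16 nuclear factors 13 were tested and 0 passed (median 0.05). Of 17 members of the cytoplasmic relay and the degradation complex all 17 were tested and 0 passed (median 0.03). In the latter, Usp34, a deubiquitinase acting on axin, was the 1 gene at an unadjusted edgeR p below 0.05 (log2 fold change 0.23, SE 0.10, adjusted p = 0.791), and its exons overlap Ahsa2 on the opposite strand over 2137 bases. Of 21 Wnt inhibitors 12 were tested and 0 passed, with a median of 0.05. With no filter and with DESeq2 all 21 were included, and the median was 0.18 and 0.17. With 1 library left out the median of the 12 ranged from −0.050 (mutant replicate 2) to 0.32 (wild type replicate 1). The medians of the other 4 Wnt lists ranged from −0.12 to 0.19 with 1 library left out. Notum, a secreted enzyme that strips the lipid from Wnt proteins, was the most abundant per length, at 15.1 and 18.8 CPM in the wild type and 14.6 and 18.9 CPM in the mutant libraries. Its exons overlap Notumos on the opposite strand.

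Of 34 further pericentral genes all were tested and 0 passed, with 13 positive and 21 negative log2 fold changes and a median of −0.01. At an unadjusted edgeR p below 0.05 there were 6 of 34, a larger share than the 6.19% of all genes tested. The difference in share was not tested. Of the 6, 4 were lower and 2 higher in mutant liver. With no filter 2 genes of the list passed the adjusted threshold. Cyp2e1, the ethanol-metabolising cytochrome, was at 6213 and 5395 CPM in the wild type and 5507 and 5999 CPM in the mutant libraries. Cyp1a2, a cytochrome induced through the aryl hydrocarbon receptor, was at 420 and 624 CPM against 491 and 645 CPM. Gstm2, a glutathione transferase with close paralogs, had the smallest p of the list (edgeR adjusted p = 0.195), at 81.0 and 83.5 CPM against 64.9 and 65.0 CPM (log2 fold change −0.34, SE 0.09). Car3, a carbonic anhydrase, was at 3958 and 5231 CPM against 3320 and 3451 CPM (−0.44, SE 0.13, edgeR adjusted p = 0.389).

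Of 31 periportal genes, active at the opposite end of the lobule, 1 fell past the threshold and 0 rose, with a median of −0.02. Of all genes tested 0.341% passed. The periportal gene was Hsd17b6, a hydroxysteroid dehydrogenase (log2 fold change −0.91, SE 0.10, edgeR adjusted p = 0.00228). With no filter and with DESeq2 the count of periportal genes past the threshold was 2. At an unadjusted edgeR p below 0.05 there were 5 of 31 periportal genes, a larger share than the 6.19% of all genes tested. The difference in share was not tested. Of the 5, 3 were higher and 2 lower in mutant liver. With either wild type replicate 1 or mutant replicate 1 left out, 0 periportal genes passed. Summed CPM of the other pericentral list was 26865 and 29409 in the wild type and 25920 and 26355 in the mutant libraries, and that of the periportal list was 26132 and 29290 against 27764 and 28294.

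**Figure D4:**
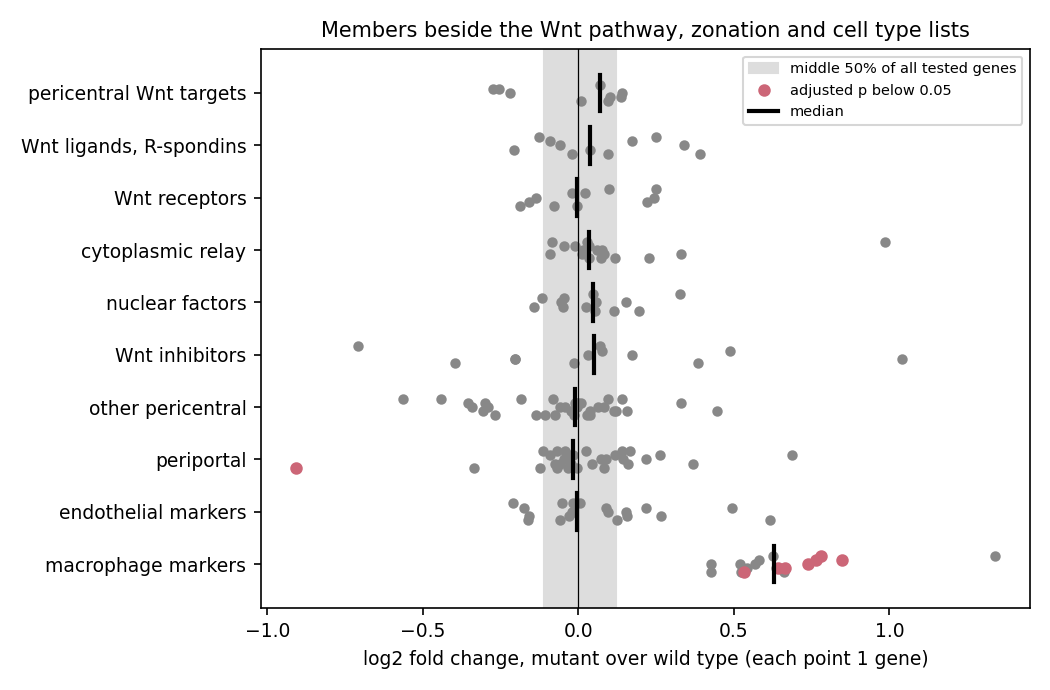
Log2 fold change, mutant over wild type, of each tested gene in the pericentral Wnt target set, 5 Wnt pathway lists, 2 zonation lists and 2 cell type lists; black bars are list medians, coloured points genes with an adjusted p below 0.05, and the grey band spans the middle 50% of all genes tested. Medians of the first 9 lists lie between −0.02 and 0.07, and that of the macrophage markers is 0.63.

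Markers of other liver cells were measured beside these genes. The 20 endothelial markers, of the central vein and the sinusoids together, had a median log2 fold change of 0.00. Their summed level was 389 and 403 CPM in the wild type and 393 and 391 CPM in the mutant libraries. Of 18 macrophage markers 18 were positive, against 49.7% of all genes tested, and 7 passed the threshold, against 0.341%. This list, like the others, was chosen with earlier results of these data known. Of its genes 0 were at 0 counts in all libraries. Their summed level was 494 and 546 CPM in the wild type and 761 and 841 CPM in the mutant libraries. With any 1 library left out 0 passed, while the median stayed between 0.54 and 0.73, beside 0.63 with all 4. The count of 7 became 16 with no filter, 4 with a filter of 1 CPM in 2 libraries, 14 with the replicate block, 13 with DESeq2, and 1 both with limma-voom and without robust estimation.

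Genes of blood cells also had positive medians. Of 5 erythroid markers tested all 5 were positive, against 49.7% of all genes tested, with a median of 0.45. Their summed level was 238 and 266 CPM in the wild type and 295 and 335 CPM in the mutant libraries. The beta globin Hbb-bt, which has a close paralog, rose past the threshold (log2 fold change 0.79, edgeR adjusted p = 0.0146). Of 14 lymphocyte and neutrophil markers tested 10 were positive and 4 negative, with a median of 0.78. With a filter of 1 CPM in 2 libraries only 3 were tested, with a median of −0.048. With 1 library left out the median of the 14 ranged from 0.34 (wild type replicate 1) to 0.83 (wild type replicate 2). The summed level of this list overlapped, at 17.4 and 30.2 CPM against 26.4 and 19.7 CPM. The pan-leukocyte gene Ptprc rose past the threshold in the main fit (0.77, edgeR adjusted p = 0.0405). With limma-voom and without robust estimation 0 genes passed in the erythroid list and 0 in the lymphocyte and neutrophil list. With a filter of 1 CPM in 2 libraries 0 passed in the latter. With no filter 3 erythroid markers and 2 lymphocyte and neutrophil markers passed. Neither Hbb-bt nor Ptprc passed with any 1 library left out. In the hepatocyte, cholangiocyte and stellate cell lists 0 genes passed, and the medians were 0.03, −0.07 and −0.04. The part of macrophage and blood cell RNA in the values of the 9 genes was not tested.

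Likeness of profile was the root mean square difference of log2 CPM, centred on each gene's mean, over the 4 libraries, among 9462 genes with a mean log2 CPM of at least 2. Nearest to Glul were Yme1l1 and Rbm6, at 0.0045 and 0.0072. Nearest to Axin2 were Vtn and Cd47, at 0.0052 and 0.0070, and nearest to Lgr5 were Mettl13 and Prdm15, both at 0.023. From the lowest to the highest library, log2 CPM itself spanned only 0.16 for Glul and 0.20 for Axin2, and 0.44 for Lgr5. With 9462 candidates and only 4 libraries, close neighbours say nothing of shared regulation, which was not tested.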

How the data were processed

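The authors deposited raw counts of reads for each Ensembl gene, in 1 file a library with 37315 rows, 0 of which name no gene. TopHat2 2.1.1, HTSeq 0.6.0 and mm10 are named in the submitters' processing notes; the sources used here do not give the counting mode, strand setting or annotation release. Strand is not marked by the library kit, hence the exon overlaps given. Symbols matched 95% of identifiers (GENCODE M21 annotation of GRCm38), which also gave coordinates and exon lengths. TPM left out identifiers without a length (0.131% of counts).

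The test was edgeR 4.0.16 (R 4.3.3) on these counts: filterByExpr with a minimum count of 10, TMM scaling, and glmQLFit and glmQLFTest with robust estimation, with group as the only term. The threshold was a Benjamini-Hochberg adjusted p below 0.05 over all 14657 genes. The SE is the size of the log2 fold change divided by the square root of F. In 5 simulated sets of 14657 genes with 200 changed, the test recovered 66.4% of the 2-fold and 33.6% of the 1.5-fold changes. Of its calls 20.2% were false, a larger share than the 0.05 that the threshold aims at. The same may hold for the genes called in these data. Of the 95% intervals 95.1% held the true value. Counts were drawn with the dispersions estimated from these libraries, so this share does not cover a spread between animals that the libraries may lack.

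The 10 genes and all lists were chosen with earlier results of these data known. Named beside them were Foxo1, 8 textbook Wnt and pericentral genes, up to 4 genes past the threshold in each list, and, in Wnt and zonation lists with fewer than 2 such genes, the 2 of highest level per length and the 2 of smallest p; not every gene so taken is described. For Glul, Lgr5 and Axin2 the 2 genes nearest in profile were named (log2 of CPM plus 0.5). Alternatives were scaling by RLE or upper quartile, no filter, 1 CPM in 2 libraries, DESeq2 1.42.0, limma-voom (limma 3.58.1), non-robust edgeR estimation, a block on replicate number, and each library left out with the gene set kept.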

Additional observations from a re-analysis of the deposited data

How the results depend on the processing

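The count of 0 members past the threshold held under all 12 alternatives, and 0 of 108 recomputed member values passed. The members' median log2 fold change was 0.077 with no filter and −0.026 to 0.031 with 1 library left out. Under the 8 alternatives that kept all libraries every member kept its sign. With 1 library left out Glul ranged from −0.073 to 0.086, Oat from −0.026 to 0.24, Tbx3 from −0.11 to 0.23, Rnf43 from −0.030 to 0.29 and Znrf3 from −0.50 to 0.015, while Axin2, Slc1a2, Lgr5 and Nkd1 kept their signs. Over all genes the count of 50 became 258 with no filter, 24 with a filter of 1 CPM in 2 libraries, 109 with DESeq2, 7 with limma-voom, 8 without robust estimation and 3 to 17 with 1 library left out. The cause was not tested. With the replicate block 111 genes passed and 0 members. Deviations of same-numbered libraries had a correlation of 0.0039 across genes. With 2 libraries a group this value cannot show whether same-numbered libraries share a litter, day or batch. The sources used here do not say. With the longest transcript as the length, 6 of 9 members kept their place in the order of levels. Depth differed among members more than precision did: Glul, with at least 62318 counts a library, had an SE of 0.11, and Lgr5, with at least 751, had 0.13.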

Other observations

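Ratios of counts between 2 members within a library do not depend on scaling. Of the 36 ratios among the 9 genes, the groups did not overlap in 12 (33.3%), a share close to the 34.1% of single genes; the ratios share members and are not independent. The ratio of Rnf43 to Znrf3, chosen after its values were seen, was 2.27 and 2.85 in the wild type and 3.50 and 3.06 in the mutant libraries. The ratio of Axin2 to Lgr5, also chosen after its values were seen, was 0.464 and 0.534 in the wild type and 0.699 and 0.632 in the mutant libraries. Neither difference was tested.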
